A study of Sus scrofa with 10 samples.

Results

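The interleukins and interleukin receptor chains read by the array were 39 of the 4560 genes with a symbol, 22 of them ligands, 16 receptor chains and 1 an enzyme, and they were followed here through the oviduct wall of 10 sows. Members were all genes whose symbol starts with IL and a digit, with IL6, IL1A and IL8 left out, and they were read by 60 of the 45220 array features. The sows were cyclic commercial Landrace x Large White hybrids in spontaneous oestrus, without hormonal treatment in either group. Of these, 5 sows had been inseminated after the onset of standing oestrus with diluted fresh boar semen and 5 had not. In both groups the tissue was the whole wall of the ampullary-isthmic junction, the site of fertilization, removed after ovulation and hybridized to 1 single-colour array per sow. Each sow is numbered within its group, from inseminated sow 1 to 5 and from non-inseminated sow 1 to 5. All values are log2 intensities, and a gene is the mean of its features.

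Interleukins are small secreted proteins by which leukocytes, epithelium and stroma signal to each other. Most of them act through receptors built from a specific chain and a chain shared with other interleukins, such as the common gamma chain IL2RG or the gp130 chain IL6ST, and these receptors signal through the JAK kinases and STAT factors. The members of the IL-1 family signal instead through MYD88 and the IRAK kinases, and IL1B and IL18 are released in active form after cleavage by CASP1. In the oviduct such signals stand between tolerance of spermatozoa and embryos and defence against microbes.

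The arrays read the tissue that the study describes. OVGP1, the oviduct-specific glycoprotein, lay between 15.91 and 15.98 in the 10 sows. The highest value on the arrays was 15.996, so that differences in OVGP1 may not be seen. The 9 measured markers of oviduct epithelium (of 11 listed) had means of 7.79 to 15.95 and the 4 of smooth muscle (of 6) means of 12.28 to 14.74. Non-inseminated sow 2 stood apart from the rest. In it 436 features lay more than 2 above their own median over the sows, against 30 to 76 in each of the other 9 sows, and its epithelial markers had the lowest mean, 10.43 against 10.85 to 11.39. It held the highest value of 9 of the 39 interleukin genes and the lowest of 8.

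Few interleukin genes had a mean clear of the array's background, among ligands as among receptors. Since the brightness of a feature also depends on its sequence, levels of different genes were not ranked against each other but were set against 26 measured genes known from other organs or stages, such as INS and the caseins, whose means ran from 6.44 to 8.32 with a median of 6.71. None of the 22 ligands and none of the 16 receptor chains had a mean above the highest of these background genes, the pituitary hormone chain LHB, which 38.6% of all genes exceeded. This holds for means over features. By its brightest feature IL4R (mean 9.03) and IL10RB (mean 8.37) lay above that level, as did 5 of the 26 background genes by theirs, among which a feature of the casein CSN2 reached a mean of 13.16. Above the 90th percentile of the background genes, 7.58, lay 3 of the 22 ligands (13.6%) and 2 of the 16 receptor chains (12.5%). The share was 52.9% of all genes and 11.5% of the background genes themselves, the latter fixed by the choice of a percentile. As a group the members crossed this level about as often as the background genes. The ligands were IL15, IL16 and IL18 and the receptor chains IL4R and IL10RB. Above the median of all array values, 7.09, lay 7 ligands and 3 receptor chains, against 65.7% of all genes and 7 of the 26 background genes. A member under these levels may be expressed in few cells, and its transcript was not told from background at this brightness.

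**Figure D1:**
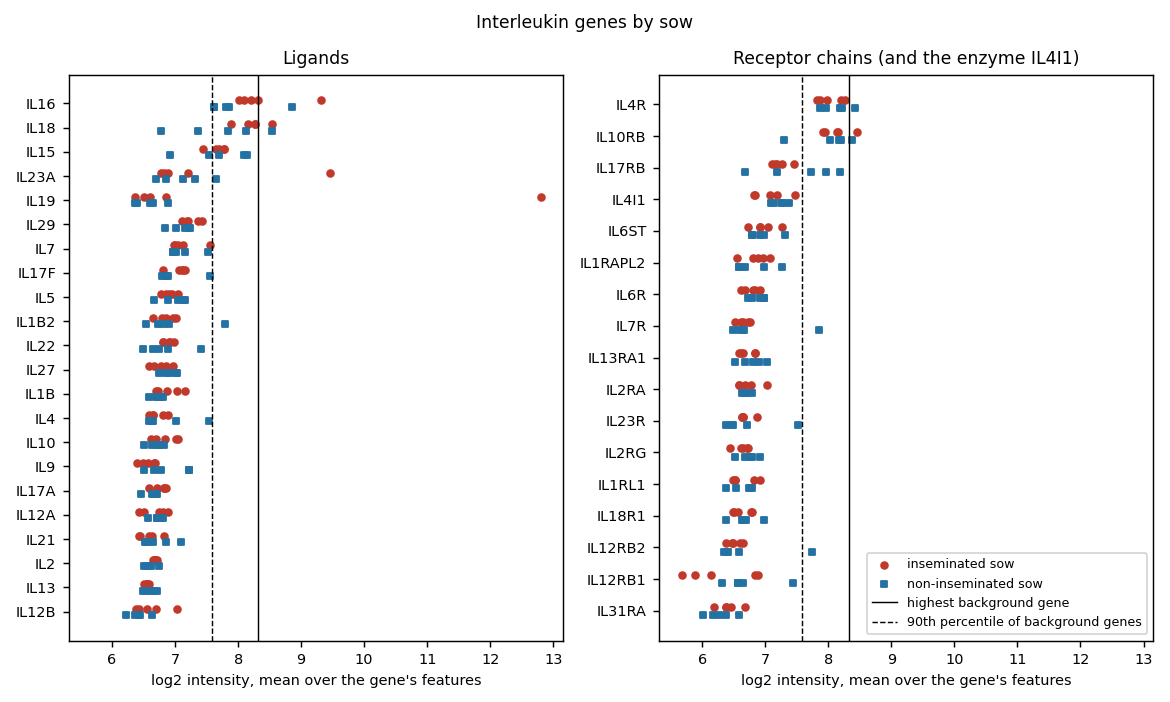
Log2 intensity (x axis) of each interleukin gene (y axis) in each sow, inseminated sows as red circles and non-inseminated sows as blue squares. The solid line marks the highest background gene, 8.32, and the dashed line the 90th percentile of the background genes, 7.58. IL16 and IL4R lay above the dashed line in all 10 sows, and the single value of IL19 at 12.8 is that of inseminated sow 1.

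IL16, which draws CD4-bearing leukocytes, was read at 8.20, 8.01, 8.32, 8.09 and 9.32 in inseminated sows 1 to 5 and at 7.81, 8.85, 7.86, 7.61 and 7.61 in non-inseminated sows 1 to 5. Each group held 1 sow far above the others, and the groups overlapped. IL18, an IL-1 family cytokine that epithelium stores as a precursor, was read at 7.88, 8.16, 8.26, 8.53 and 8.27 in inseminated and at 7.36, 7.84, 8.13, 6.78 and 8.53 in non-inseminated sows. The inseminated sows lay close together and the non-inseminated sows spread from below them to their upper end. IL15, which maintains NK cells and memory T cells, was read at 7.69, 7.77, 7.78, 7.45 and 7.65 in inseminated and at 7.69, 6.92, 7.54, 8.14 and 8.10 in non-inseminated sows. Its lowest and its highest values were both in non-inseminated sows, whose SD was 0.494 against 0.136 in inseminated sows.

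Among receptor chains, IL4R, the chain that binds IL-4 and that IL-13 also uses, was read at 8.20, 7.82, 7.98, 7.87 and 8.26 in inseminated and at 7.96, 8.42, 7.87, 8.18 and 8.22 in non-inseminated sows. The SD over the 10 sows was 0.203, near the median of all members (0.209), but its brighter feature alone ran from 8.63 to 9.90 with an SD of 0.387. IL10RB, the second chain of the receptors for IL-10, IL-22 and the lambda interferons, was read at 8.14, 8.45, 8.15, 7.95 and 7.92 in inseminated and at 8.20, 7.29, 8.38, 8.03 and 8.17 in non-inseminated sows. Non-inseminated sow 2 was the 1 sow under the 90th percentile of the background genes, and it was lowest in both features of this gene. IL10RB was chosen for description after its values were seen.

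Set against 7.58 by gene means, in no system were a measured ligand and a measured receptor chain both above it. The means of 3 of the 26 background genes also lay above this level, and the side on which a gene fell also depends on the sequence of its features. IL4 lay between 6.58 and 7.54 while its receptor chain IL4R exceeded 7.58 in all 10 sows. IL10, the main anti-inflammatory interleukin, lay between 6.51 and 7.05, and IL10RB exceeded 7.58 in 9 sows. In both systems the receptor chain was the member above 7.58 by its gene mean. For IL4R this came from the brighter feature, since the other ran from 6.93 to 7.39. The reverse held for IL18, above 7.58 in 8 sows, whose receptor chain IL18R1 lay between 6.38 and 6.98. IL15 exceeded 7.58 in 7 sows, although its features had means of 8.07 and 7.28. IL2RG, through which IL15 signals with other members of its family, lay between 6.44 and 6.91. The other chains of the receptors for IL-10, IL-15 and IL-18 were not among the 39 members. These systems were therefore read only in part. For IL7 and IL7R, which sustain T cells, both means were under this level, at 7.13 and 6.75. IL1B, the early inflammatory cytokine, lay between 6.59 and 7.16, and its porcine paralogue IL1B2 between 6.54 and 7.79. Features of these copies may share transcripts, so that their values are not independent readings. IL6ST, the signalling chain of the IL-6 family, lay between 6.73 and 7.31 and IL6R between 6.61 and 6.97.

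Features of 1 gene followed each other only in part, and most closely for IL15. Of the 39 members 15 had more than 1 feature, and the correlation of their features across the 10 sows had a median of 0.44. Over all genes with several features this median was 0.66 above the highest background gene and 0.18 at or under it, where all 15 of these members lay. Split at the 90th percentile of the background genes, it was 0.59 for 4 members above and 0.43 for 11 at or under. Over all genes it was 0.58 and 0.12. The features of IL15 correlated at 0.93, those of IL23R at 0.69, those of IL6R at a median of 0.61 and those of IL18 and IL10RB at 0.59 each. For IL23R and IL10RB the correlations lean on non-inseminated sow 2, the sow that stood apart from the rest. It was highest in both features of IL23R, at 7.19 and 7.82, and lowest in both of IL10RB, at 7.01 and 7.57. In IL15 both features were lowest in non-inseminated sow 2, at 7.10 and 6.75, and highest in non-inseminated sows 4 and 5, at 8.65 and 8.68 in the brighter feature. In IL4R the features lay at means of 9.03 and 7.13 and correlated at -0.06, so that the mean of this gene joins a bright and a dim reading. These correlations are descriptions over features that share a target and the arrays.

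Between inseminated and non-inseminated sows there was no difference in any interleukin gene that passed adjustment. In limma, with adjustment over all genes, 0 of the 39 members passed a rate of 5%, as did 0.0% of all genes, and each member had an adjusted p of 0.999. At an unadjusted p under 0.05 there were also 0 members, beside 2.59% of all genes, 1.47% higher and 1.12% lower in inseminated sows. Of the 60 member features 2 had such a p, beside 3.37% of all features. The groups overlapped in all 39 members, whereas they did not overlap in 0.461% of all genes, 0.241% higher and 0.219% lower. In mean, 13 of the 22 ligands were higher and 9 lower in inseminated sows, with a median difference of 0.06, and 6 of the 16 receptor chains were higher and 10 lower, with a median of -0.06. Over all genes the median was -0.01 and the share higher 46.8%. By sow, the median deviation of the ligands from each gene's level over all sows ran from -0.07 to 0.02 in inseminated and from -0.12 to -0.03 in non-inseminated sows, and that of the receptor chains from -0.13 to 0.00 and from -0.03 to 0.07. Both ranges overlapped between the groups, and no test was made of these medians. The unadjusted count was 3 without non-inseminated sow 5 (IL17RB, IL18 and IL9), 2 without non-inseminated sow 2 (IL16 and IL17F) and 1 without non-inseminated sow 1 (IL9), and none of these passed adjustment.

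**Figure D2:**
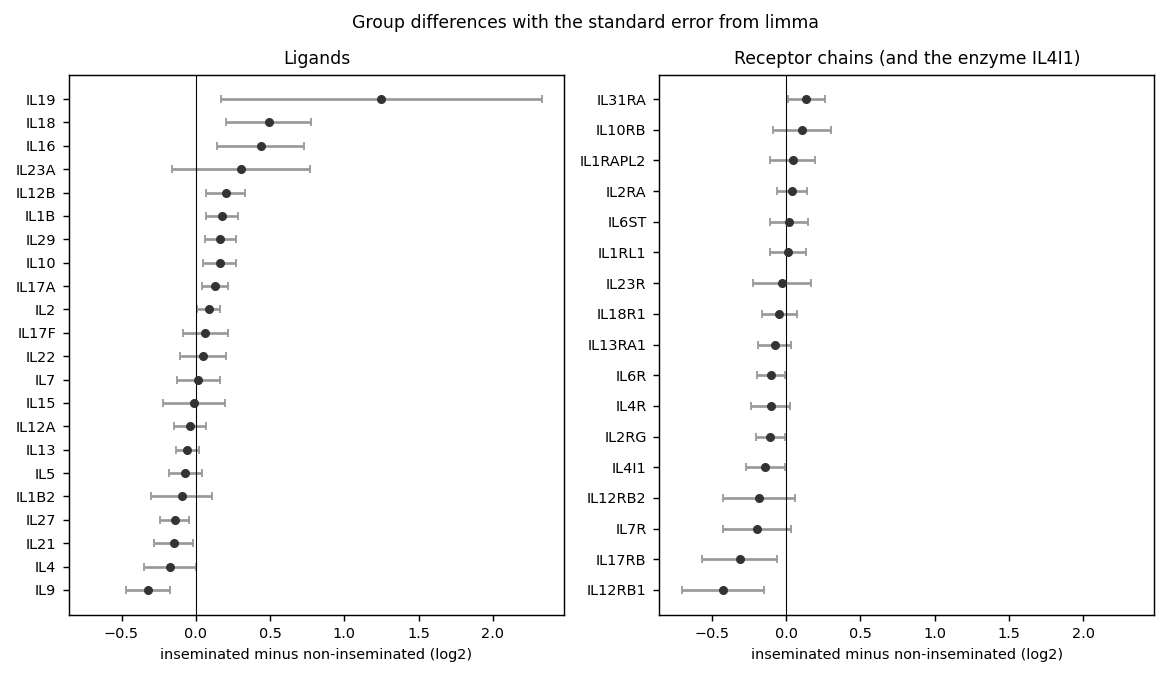
Difference of each interleukin gene (y axis) between inseminated and non-inseminated sows in log2 units (x axis), with the standard error from limma as bars, 5 sows in each group. The points lie from -0.43 for IL12RB1 to 1.25 for IL19, which also had the widest bar.

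By family the directions were mixed. The 5 members of the IL-10 family, IL10, IL10RB, IL19, IL22 and IL29, were each higher in mean in inseminated sows, with a median difference of 0.16, and none had an unadjusted p under 0.05. IL10RB was lower by 0.07 without non-inseminated sow 2 and IL22, which acts on epithelial barriers, by 0.04 without non-inseminated sow 5, so that the common direction did not outlast either omission. Of the 10 members that signal through the common gamma chain or belong to its receptors, 3 were higher and 7 lower, with a median of -0.10. The IL-1 family had 4 higher and 2 lower (median 0.03), the IL-12 family 2 higher and 5 lower (median -0.04), and the type 2 members IL5, IL13 and IL13RA1 were each lower (median -0.07).

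In limma the smallest unadjusted p-values among ligands belonged to IL9, IL18 and IL1B. IL9, a growth factor of mast cells and T cells, had a mean of 6.56 ± 0.124 (SD, n = 5) with insemination and of 6.88 ± 0.323 (SD, n = 5) without, a difference of -0.32 (standard error 0.149, unadjusted p = 0.0541 from limma). It was read at background, and its highest values, 7.22 in non-inseminated sow 2 and 7.22 in non-inseminated sow 4, came from different features. In sow 2 the features lay at 7.83 and 6.60 and in sow 4 at 6.67 and 7.77. IL18 was 8.22 ± 0.234 (SD, n = 5) against 7.73 ± 0.683 (SD, n = 5), higher by 0.49 (standard error 0.285, unadjusted p = 0.114 from limma, and p = 0.159 by two-sided exact permutation test). Its features differed by 0.67 and 0.31, and without non-inseminated sow 4 the difference was 0.25. IL16 differed by 0.44 (standard error 0.294, two-sided exact permutation test, p = 0.254), by 0.20 without inseminated sow 5 and by 0.66 without non-inseminated sow 2.

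The other named ligands differed by 0.20 or less in mean, apart from those whose value rested on a single sow. IL1B differed by 0.18 (standard error 0.106), IL10 by 0.16 (standard error 0.109) and IL12B, the chain shared by IL-12 and IL-23, by 0.20 (standard error 0.133). IL29, which is a lambda interferon and acts on epithelium, differed by 0.16 (standard error 0.105). Its values were 7.21, 7.19, 7.43, 7.37 and 7.11 in inseminated and 7.16, 6.84, 7.02, 7.22 and 7.24 in non-inseminated sows, which overlapped. IL15 differed by -0.01 (standard error 0.208). In 1 of the 2 features of IL10 the difference was 0.37 (unadjusted p = 0.0463 from limma), while both features of this gene lay under 7 in mean and correlated at -0.17.

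Receptor chains had differences within 0.20 of 0 with the exception of IL12RB1 and IL17RB. IL12RB1, the chain shared by the receptors for IL-12 and IL-23, had a mean of 6.28 ± 0.555 (SD, n = 5) with insemination and of 6.71 ± 0.425 (SD, n = 5) without, a difference of -0.43 (standard error 0.277, two-sided exact permutation test, p = 0.214). It had 1 feature, whose values of 5.67 to 7.43 all lay under 7.58. IL17RB, which binds IL-25, differed by -0.31 (standard error 0.251) and by -0.53 without non-inseminated sow 5, and is named here after its values were seen. Its inseminated sows lay between 7.10 and 7.45, and its non-inseminated sows at 8.19, 7.72, 7.96, 7.19 and 6.67, above and below them. IL2RG differed by -0.11 (standard error 0.0983), IL4R by -0.10 (standard error 0.131), IL6ST by 0.02 (standard error 0.131) and IL7R by -0.20 (standard error 0.23). The sign of IL6ST turned to -0.06 with its brightest feature alone. In 1 of the 3 features of IL6R the difference was -0.25 (unadjusted p = 0.0416 from limma), and over its 3 features it was -0.10.

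Several wide spreads were those of 1 feature in 1 sow. Of the 600 values of member features, 4 lay more than 2 above the feature's median over the sows (0.667%) and 1 more than 2 below it (0.167%), against 0.199% and 0.0666% of the values of all features. IL19, an IL-10 family cytokine that acts on epithelium, was read at 12.8 in inseminated sow 1 and between 6.36 and 6.88 in the other 9 sows. Its difference of 1.25 (standard error 1.08) was 0.01 without this sow. IL23A, the specific chain of IL-23, was read at 9.45 in the same sow and between 6.70 and 7.65 in the others, and its difference of 0.30 (standard error 0.467) was -0.20 without it. Each of these genes had 1 feature, so that no other reading of the transcript could be set beside them.

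Where a second feature existed, it did not share the departure. In IL7R 1 feature was read at 9.45 in non-inseminated sow 5 and the other at 6.24, its lowest value. In IL7 1 of 6 features was read at 9.0 in this sow and the other 5 between 6.86 and 7.43. In IL1B2 1 of 3 features was read at 9.43 in non-inseminated sow 2 and the others at 7.21 and 6.75. In IL18 the feature that was read at 5.75 in non-inseminated sow 4 stood beside another at 7.80. Without non-inseminated sow 5 the difference of IL7R was 0.05 in place of -0.20.

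**Figure D3:**
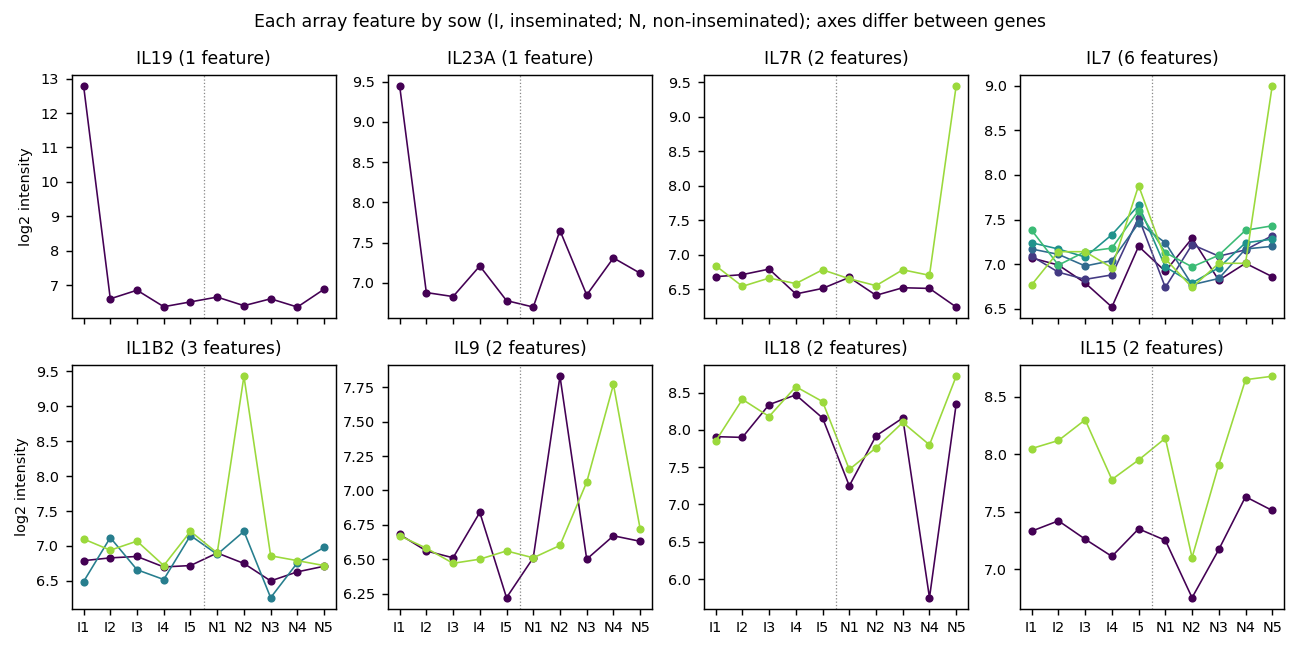
Log2 intensity (y axis, scaled for each gene) of every feature of 8 interleukin genes in the 5 inseminated (I) and 5 non-inseminated (N) sows (x axis), 1 line per feature. The features of IL15 run in parallel, whereas single features of IL7R, IL7, IL1B2 and IL9 leave the others in 1 sow.

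The genes through which interleukins signal showed no difference that passed adjustment either. Of 47 listed genes of these pathways 23 were measured, and 12 of them (52.2%) lay above the 90th percentile of the background genes, a share close to the 52.9% of all genes. Among them were the kinases JAK1, JAK2 and TYK2, the factors STAT2, STAT5A, STAT5B and STAT6, and MYD88, IRAK4 and TRAF6 of the IL-1 receptor path. In mean 9 were higher and 14 lower in inseminated sows, with a median of -0.02 and a mean of 0.01. None passed adjustment over all genes in limma, and 1 of the 23 had an unadjusted p under 0.05, beside 2.59% of all genes. This was CASP1, the protease that cleaves the precursors of IL-1 beta and IL-18, at 7.84, 7.44, 7.30, 7.47 and 8.07 in inseminated and at 7.40, 7.04, 7.37, 7.24 and 7.20 in non-inseminated sows. Of the inseminated sows 1 lay among the non-inseminated sows and the other 4 above them, and the difference was 0.38 (standard error 0.151, unadjusted p = 0.0304, adjusted p = 0.999 from limma) or 0.26 without inseminated sow 5. Its unadjusted p was above 0.05 (0.0515 to 0.0742) without inseminated sow 1 or 5 or without non-inseminated sow 2, 4 or 5.

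LIF, the IL-6 family cytokine known for its part in implantation, was read at 9.01 in inseminated sow 5 and between 6.65 and 7.15 in the other sows. Its difference of 0.63 (standard error 0.371) was 0.21 without that sow. STAT6, the factor activated through IL4R, differed by -0.20 (standard error 0.0985), STAT4, which acts downstream of IL-12, by -0.15 (standard error 0.0871) and STAT5A by -0.13 (standard error 0.117). The phosphatase PTPN11 differed by -0.24 (standard error 0.264), and by -0.03 without non-inseminated sow 2. In that sow PTPN11 was read at 10.01, against 8.45 to 9.33 in the others.

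IL16 correlated across sows with the mean of T and NK cell markers, most of which were themselves read near background. Across the 5 members above the 90th percentile of the background genes and 3 marker lists, 15 relations were computed over the 10 sows, each tested by two-sided permutation. With the mean of 10 measured T and NK cell markers (of 11 listed) IL16 had a Pearson r of 0.95 (permutation p = 5e-05, adjusted p = 0.00075 over the 15 relations) and a Spearman rho of 0.90 (permutation p = 0.00083, adjusted p = 0.0124). Without inseminated sow 5 and non-inseminated sow 2, the sows farthest from the median of the markers, r was 0.84, and with the mean of each group removed it was 0.94. The marker mean ran from 7.32 to 7.80 in inseminated and from 7.19 to 7.49 in non-inseminated sows, highest in inseminated sow 5 and then in non-inseminated sow 2, which also held the highest values of IL16. Of the 10 markers 8 had means under 7.58, namely the T cell receptor chains CD3D (6.87), CD3E (7.46) and CD3G (6.86), and CD2 (6.68), CD4 (6.71), CD8A (6.82), CD8B (6.61) and LCK (7.21). The cytotoxic granule protease GZMB at 10.73 and the NK cell receptor KLRK1 at 7.77 were the others. The high marker means of these sows came only in part from the same genes. KLRK1 was read at 9.48 in inseminated sow 5 and 7.57 in non-inseminated sow 2. The T cell kinase LCK was read at 7.34 and 8.20, CD3E at 7.79 and 7.91 and CD8B at 7.01 and 6.71. These sows held the highest values of LCK, CD3E and CD8B, and in none of the other markers did both lead. In samples of the whole wall a larger number of such cells and more RNA per cell cannot be told apart.

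With the 4 measured leukocyte markers of any type (of 8) IL16 had an r of 0.85 (permutation p = 0.00471, adjusted p = 0.0235 over the 15 relations) and a rho of 0.60 (permutation p = 0.0724, adjusted p = 0.203), and r without the same sows was 0.19, so that this relation rested on them. With 5 macrophage and myeloid markers (of 8) r was 0.88 (permutation p = 0.00186, adjusted p = 0.0139), or 0.61 without these sows, and rho was 0.77 (permutation p = 0.0123, adjusted p = 0.092). IL4R, IL10RB, IL15 and IL18 passed with none of the lists. IL15 had an r of -0.47 (permutation p = 0.178, adjusted p = 0.303) and a rho of -0.67 (permutation p = 0.039, adjusted p = 0.195) with the T and NK cell markers, and IL18 an r of 0.25 (permutation p = 0.447, adjusted p = 0.515) and a rho of 0.07 (permutation p = 0.864, adjusted p = 0.926). IL4R and IL10RB had an r of 0.65 (permutation p = 0.0463, adjusted p = 0.147) and -0.62 (permutation p = 0.049, adjusted p = 0.147) with the myeloid markers, which were 0.15 and 0.20 without the farthest sows.

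**Figure D4:**
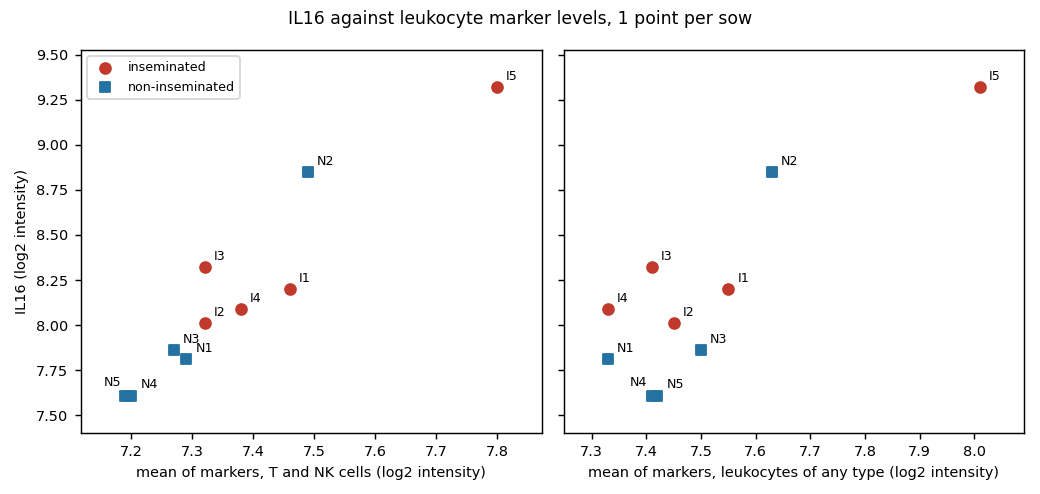
IL16 (y axis, log2 intensity) against the mean level of T and NK cell markers (left, x axis) and of leukocyte markers of any type (right, x axis), 1 point per sow, with inseminated sows as red circles and non-inseminated sows as blue squares. Inseminated sow 5 (I5) and non-inseminated sow 2 (N2) lie highest in both, and among the other 8 sows r was 0.84 with T and NK cell markers and 0.19 with leukocyte markers.

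T and NK cell markers were themselves higher in mean in inseminated sows for 8 of the 10 genes, with a median difference of 0.10, and no marker passed adjustment over all genes. Leukocyte markers of any type were higher in 3 of 4, with a median of 0.12. Macrophage and myeloid markers were higher in 4 of 5, with a median of 0.20. Over all genes 46.8% were higher, with a median of -0.01. The part of these markers in the difference of IL16 between the groups was not tested.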

How the data were processed

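RNA of the ampullary-isthmic junction of 10 sows was hybridized to Agilent porcine arrays with 1 dye, 1 array per sow. Spot intensities had been read in GenePix. In limma the authors then applied normexp background correction (offset 10) and quantile normalization. The deposited log2 intensities were used without change. Sorted arrays differ by at most 0.054, so that a shift of all genes on 1 array would not be seen. Flags and background of single spots were not analysed here, control spots are not marked, and the number of arrays limits the precision. The genome build is not given in the sources used here.

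Symbols came from the platform's annotation, updated by accession from the Sscrofa11.1 gene table for 6055 features, which renamed 4 members. In all 10290 features had a symbol and 34930 had none. Sows were numbered in the order of the labels. No batch is labelled.

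The groups were compared by lmFit and eBayes of limma (3.58.1, under R 4.3.3). P-values were adjusted by Benjamini-Hochberg across the 45220 features or across the 4560 genes. The fit was tested on simulated data, drawn as independent normal values for each gene and without an array that stood apart from the rest. Single genes were also compared by exact permutation over the 252 splits of the sows, and correlations by 100000 permutations (Python 3.11.15, numpy 2.4.6, scipy 1.17.1). Members, lists and tests were chosen with earlier results of these data known. Named were the 8 members with the smallest p, the 3 with the widest SD, the brightest members above the highest background gene (there were none), IL2RG, IL6ST, IL1B, IL1RN (not measured as a member), IL18, IL10, IL4R, IL7R and IL15, and the 6 pathway genes with the smallest p. Other members named were chosen after their values were seen. Since no member had a mean above the highest background gene, the correlations were run on the members above the 90th percentile of the background genes, a choice made after seeing the data. Blood progesterone and surgery day of single sows were not used here. Alternatives tried were centring, array weights, a trended robust variance, leaving out dim features, the brightest feature of each gene, other background levels, and leaving out each sow.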

Additional observations from a re-analysis of the deposited data

Results flagged for a closer look

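Of 42 groups of 5 sows, those of the 15 named members and the 6 named pathway genes, 7 held 1 sow whose gap to the nearest other sow exceeded 0.71 of the group's range. Chance gives about 1 in 20 groups, but IL19, IL23A and IL16 were among the genes named for their spread or small p, so that this count cannot be read against chance. For IL19 this was inseminated sow 1 at 12.8, with the others of its group between 6.37 and 6.85. For IL23A it was the same sow at 9.45, with the others between 6.78 and 7.21. For IL7R it was non-inseminated sow 5 at 7.85 against 6.48 to 6.66, through 1 of 2 features. For IL16 it was inseminated sow 5 at 9.32 against 8.01 to 8.32, and non-inseminated sow 2 at 8.85 against 7.61 to 7.86. For LIF it was inseminated sow 5 at 9.01 against 6.69 to 7.15, and non-inseminated sow 3 at 6.84 against 6.65 to 6.70.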

How the results depend on the processing

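No interleukin gene passed adjustment over all genes in limma under any alternative, leaving out each sow included. The number with an unadjusted p under 0.05, 0 as reported, was 1 with a trended and robust variance (IL9), 2 with array weights (IL16 and IL17RB), 1 with the brightest feature (IL6R) and 0 to 3 without single sows. Over all genes, and over all features, 0 to 1 passed adjustment without single sows, the 1 without non-inseminated sow 4. The number of pathway genes with an unadjusted p under 0.05 was 0 with array weights and 0 to 2 without single sows. The median difference of ligands, 0.06, was 0.10 with array weights, 0.23 with dim features left out, which kept 8 ligands, and ran from 0.01 to 0.09 without single sows. That of receptor chains ran from -0.08 to -0.04. No ligand and no receptor chain lay above the highest background gene when any 1 sow was left out. With the brightest feature of every gene, background genes included, this level rose from 8.32 to 13.16 and 0 lay above it, whereas 0 ligands and 2 receptor chains (IL4R and IL10RB) lay above 8.32 by their brightest feature, an alternative added after seeing the data. By gene means 3 ligands and 2 receptor chains lay above the 90th percentile and 7 and 3 above the median of all values. Of the 5 members so tested 1, IL16, passed with leukocyte markers, 1 with T and NK cell markers and 1 with myeloid markers, and 0 to 1 passed with leukocyte markers without single sows, 0 without inseminated sow 5 and 0 without non-inseminated sow 2. The median correlation of features ran from 0.36 to 0.50. Signs turned for IL6ST, at -0.07 with array weights, -0.06 with dim features left out and -0.06 with the brightest feature, and from -0.05 to 0.11 without single sows, and for IL4R, at 0.00 with array weights. Without single sows IL23A ran from -0.20 to 0.47, IL7R from -0.29 to 0.05 and IL15 from -0.20 to 0.10, and 1 feature of IL7R alone differed by 0.15. The causes were not tested. No paired analysis was possible because the labels number no sows across the groups. Since 5 of the 39 members lay above the 90th percentile of the background genes, most differences were read near background.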
